A study of Homo sapiens with 5 samples.

Results

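Steroid and retinol reductases and dehydrogenases are the enzymes that make, inactivate or interconvert androgens, progestins and retinoids. The 10 genes described here were given by name: AKR1C1, AKR1C2, AKR1C3, SRD5A1, SRD5A2, SRD5A3, RDH11, HSD17B4, HSD17B10 and HSD3B2. All 10 were found among the 22889 genes of the expression table, where they are represented by 19 RefSeq accessions. The series has 5 samples of LNCaP and VCaP, established human lines of prostate cancer, and was designed to ask what LSD1, a histone lysine demethylase encoded by KDM1A, does in androgen signalling. LNCaP was transfected with an siRNA against LSD1 or with a control siRNA for RNA-seq, and untransfected cells were used for 3 chromatin immunoprecipitation (ChIP-seq) peak lists. LSD1 was precipitated from both lines, and from LNCaP also H3T6ph, histone H3 with a phosphate on threonine 6. All cells had been starved of steroids in charcoal-stripped serum for 3 days, ahead of hormone stimulation with an agent not named in the labels, and were at passage 14 to 17. Each group has 1 sample, so no value has an error between replicates and no difference has a replicate check. RNA was measured in LNCaP alone, and expression in VCaP was not analysed here.

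Androgen level in a prostate cell is set partly inside the cell. SRD5A1 and SRD5A2 turn testosterone into the more potent dihydrotestosterone, AKR1C3 makes testosterone from a weak precursor, and AKR1C2 reduces dihydrotestosterone to a weak androgen. Retinol dehydrogenases belong to the same short-chain dehydrogenase superfamily as the HSD17B and HSD3B enzymes, and RDH11 is best known in the prostate as an androgen-regulated gene of luminal cells.

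Promoter sequences are shown for the genes on which the results turn, each covering 250 bases before and 50 bases after the transcript start, 5′ to 3′ on the gene's strand, from RefSeq on GRCh38.p14. RDH11 had the largest difference between the libraries and HSD17B4 had a similar control level. Their promoters, at chr14:67695715-67696014 (minus strand) and chr5:119452247-119452546 (plus strand), share a run of 14 bases given here in capitals.
RDH11: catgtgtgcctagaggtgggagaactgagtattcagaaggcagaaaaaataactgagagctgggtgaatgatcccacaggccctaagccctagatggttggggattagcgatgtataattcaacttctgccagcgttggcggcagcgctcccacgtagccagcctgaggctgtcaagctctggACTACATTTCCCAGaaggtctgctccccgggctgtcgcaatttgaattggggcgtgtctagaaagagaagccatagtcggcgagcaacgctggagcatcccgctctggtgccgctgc
HSD17B4: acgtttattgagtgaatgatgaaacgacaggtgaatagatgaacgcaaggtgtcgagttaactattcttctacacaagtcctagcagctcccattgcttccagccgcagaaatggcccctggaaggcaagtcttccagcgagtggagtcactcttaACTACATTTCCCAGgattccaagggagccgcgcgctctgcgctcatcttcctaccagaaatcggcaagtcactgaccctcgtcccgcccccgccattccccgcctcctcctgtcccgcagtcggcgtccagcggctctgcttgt
The run, ACTACATTTCCCAG, resembles part of the long site known to be bound by the zinc finger protein ZNF143. As these letters or their reverse complement CTGGGAAATGTAGT it was present in 77 of 34796 distinct promoter windows (0.221%), including those of 2 of the 10 genes. It began at position -67 from the start in RDH11 and -94 in HSD17B4. It was taken as the longest run that the 2 windows share, after the sequences had been read.

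The AKR1C promoters are shown because AKR1C1 and AKR1C2 are near-identical copies whose reads are hard to assign. They lie at chr10:4963165-4963464 (AKR1C1, plus strand), chr10:5003808-5004107 (AKR1C2, minus strand) and chr10:5048531-5048830 (the lower of 2 RefSeq starts of AKR1C3, plus strand). Capitals mark a stretch found in all 3.
AKR1C1: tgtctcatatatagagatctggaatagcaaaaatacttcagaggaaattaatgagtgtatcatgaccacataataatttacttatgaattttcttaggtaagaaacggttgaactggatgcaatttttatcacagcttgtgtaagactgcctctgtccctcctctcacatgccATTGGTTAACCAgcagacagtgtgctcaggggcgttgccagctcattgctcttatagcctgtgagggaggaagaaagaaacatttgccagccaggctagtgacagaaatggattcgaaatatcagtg
AKR1C2: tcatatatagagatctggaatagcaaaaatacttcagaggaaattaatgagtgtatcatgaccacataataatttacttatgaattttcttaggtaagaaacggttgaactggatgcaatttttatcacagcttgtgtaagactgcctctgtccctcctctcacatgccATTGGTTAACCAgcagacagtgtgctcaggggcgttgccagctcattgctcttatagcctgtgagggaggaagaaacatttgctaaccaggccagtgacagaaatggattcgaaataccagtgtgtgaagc
AKR1C3: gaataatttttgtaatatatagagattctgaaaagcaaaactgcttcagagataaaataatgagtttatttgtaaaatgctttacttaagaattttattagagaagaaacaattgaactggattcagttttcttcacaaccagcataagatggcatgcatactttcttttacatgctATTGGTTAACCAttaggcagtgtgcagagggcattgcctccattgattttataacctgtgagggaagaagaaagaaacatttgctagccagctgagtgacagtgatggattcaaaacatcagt
Aligned to each other, the AKR1C1 and AKR1C2 windows were identical at 288 of 292 bases (98.6%), while AKR1C1 and AKR1C3 were identical at 233 of 288 (80.9%). The capitals, ATTGGTTAACCA or its reverse complement TGGTTAACCAAT, occurred in 5 of all 34796 windows, and 4 of those were the windows of AKR1C1, AKR1C2 and both starts of AKR1C3. It began at positions -77, -81 and -73 in the order shown. The stretch was also chosen after reading the sequences, and its first bases are the reverse complement of a CCAAT box. CCAAT was present on either strand in windows of 6 of the 10 genes and in 34.6% of all windows. A gene counted if any of its windows had a match, so the 2 figures are not in the same unit. In the 3 AKR1C genes the match was the start of the shared stretch, so these are not separate finds.

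Other motifs known for steroid, retinoid and stress responses were found in few of these windows. The androgen response motif AGAACA, on either strand, was found in HSD3B2 and in 14.8% of all windows, and its palindrome, with 3 bases between the inverted copies, in none of the 10 genes. TGACNNNGC, the core of the antioxidant response element, was found on either strand in 13.3% of all windows, and in SRD5A3 as its reverse complement. AGGTCA, the unit of retinoid response elements, was found in none of the 10 and in 13.8% of all windows. TATAAA was found on either strand in 11.6% of all windows, and in AKR1C3 only as its reverse complement TTTATA.

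The RNA comparison asked how these enzymes were expressed when LSD1 was depleted. KDM1A itself was at 6.87 FPKM (fragments per transcript length and library size) with LSD1 siRNA and 37.0 FPKM with control siRNA, or 18.6% of control. A read was worth 1.29 times more in the LSD1 siRNA library, judged from steps among low values, so that library's depth was about 77.3% of the control library's. Levels below are FPKM summed over the accessions of a gene, and differences are log2(FPKM + 1), LSD1 siRNA minus control siRNA, a scale that understates changes of low genes. A gene was measured when it reached 1 FPKM in either library, and it was called higher or lower when it differed by at least 1.5-fold on that scale.

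Of the 10 genes 8 were measured and 2 were not. AKR1C2 reached 1 FPKM only with LSD1 siRNA, so it could enter only by being higher there. By the 1.5-fold rule 1 of the 8, AKR1C2, was called higher, against 1.91% of all 12916 measured genes. RDH11 was the 1 gene called lower, against 2.41% of all measured genes. Among protein-coding genes 1.04% were called higher and 1.18% lower. No member passed 2-fold, against 1.97% of all measured genes in either direction, and none had an accession with a q under 0.05 in the authors' deposited table, against 0.906% of measured genes. In all, 3 members had a higher value with LSD1 siRNA and 5 a lower one, with a median log2 difference of -0.17, beside -0.01 over all measured genes, of which 47.4% had a higher value and 52.6% a lower one.

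**Figure D1:**
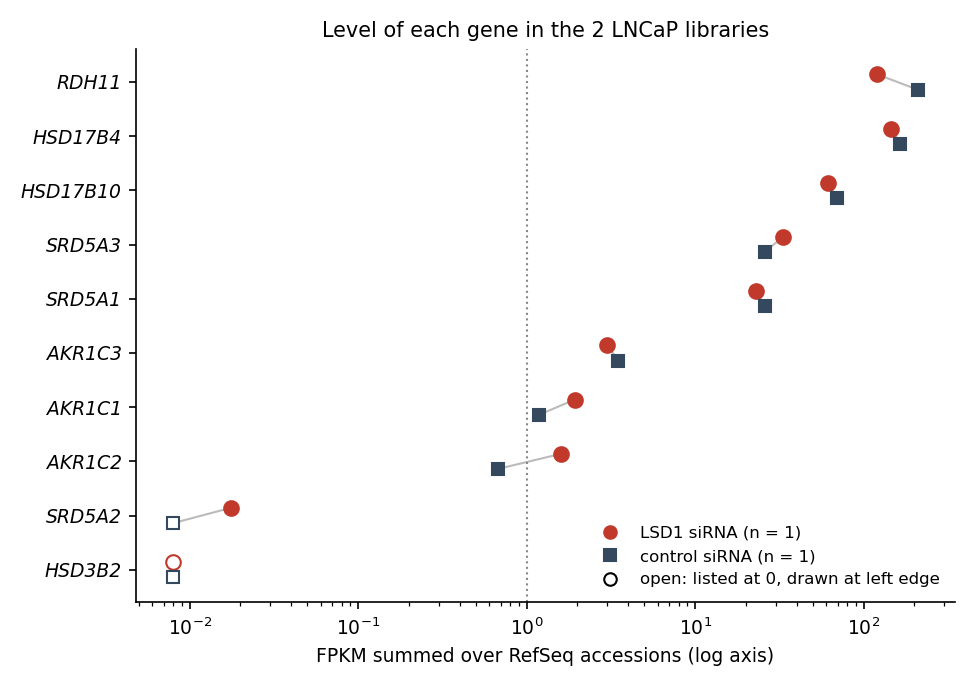
Level of each gene in FPKM on a log axis, with LSD1 siRNA as circles above control siRNA as squares, 1 library each; open symbols are listed at 0 and drawn at the left edge, and the dotted line is 1 FPKM. RDH11 has the widest gap among the high genes, at 120 FPKM with LSD1 siRNA and 209 FPKM with control siRNA, while AKR1C1 and AKR1C2 lie to the right of their control values near 1 FPKM.

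RDH11 encodes a microsomal enzyme that reduces retinal and oxidises retinol. It was at 120 FPKM with LSD1 siRNA and 209 FPKM with control siRNA, which is 57.6% of control and a log2 difference of -0.79. With control siRNA it was the most abundant of the 10 genes, within the top 3.11% of all measured genes. Only 43 of 11753 measured protein-coding genes had a lower log2 difference. Among the 699 protein-coding genes within 2-fold of its mean level, 1.72% were called lower and 3 genes (0.429%, RDH11 included) had a log2 difference of at most -0.79. In the authors' deposited table its p was 0.000339 and its q 0.0510, just above the 142 accessions called there, whose q reached 0.0495. By p it ranked at 147 of 22126 tested accessions. The whole of its level came from 1 accession, and the other was listed at 0 in both libraries.

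Of the 10 listed markers of luminal prostate cells 2 were called lower, against 2.41% of all measured genes. None had an accession with a q under 0.05 in the authors' deposited table, against 0.906% of measured genes. All 10 had a lower value with LSD1 siRNA, against 52.6% of all measured genes, with a median log2 difference of -0.39. FOLH1, at 283 FPKM with LSD1 siRNA and 284 FPKM with control siRNA, was nearly equal. Their summed level was 4293 FPKM with LSD1 siRNA and 5541 FPKM with control siRNA, led by KLK3 (prostate-specific antigen) at 1941 and 2474 FPKM in the same order. The part of these lower values in the RDH11 difference was not tested. In bulk RNA, fewer cells of a type and less RNA per cell cannot be told apart. The protein-coding genes nearest to RDH11 in both libraries, among those at 5 FPKM or more, were FKBP5 (115 and 190 FPKM with LSD1 and control siRNA), UAP1 (126 and 187 FPKM) and SEC61A1 (132 and 188 FPKM). Their distances from RDH11 were 0.15, 0.17 and 0.20 in log2(FPKM + 1) over these 2 libraries.

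The neighbours of RDH11 on chromosome 14 were not uniform. ARG2, which encodes mitochondrial arginase, was at 26.5 FPKM with LSD1 siRNA and 51.1 FPKM with control siRNA (log2 -0.92, authors' deposited q 0.228). VTI1B, a vesicle fusion gene on the same side, was at 82.2 FPKM with LSD1 siRNA and 86.9 FPKM with control siRNA (log2 -0.08). The table gives ARG2 and VTI1B the same distance of 1.92 kb from RDH11, since its intervals can span overlapping transcripts. ZFYVE26, 50.7 kb away on the other side, was at 5.91 FPKM with LSD1 siRNA and 5.17 FPKM with control siRNA (log2 0.16).

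AKR1C1, the enzyme that inactivates progesterone, was at 1.93 FPKM with LSD1 siRNA and 1.19 FPKM with control siRNA. AKR1C2, which inactivates dihydrotestosterone, was at 1.61 FPKM with LSD1 siRNA and 0.676 FPKM with control siRNA. Both values were higher with LSD1 siRNA, by 1.63 and 2.37 times in FPKM, or by 0.43 and 0.64 on the log2(FPKM + 1) scale. Within 2-fold of the mean level of AKR1C2, 1.81% of protein-coding genes had a log2 difference at least as large and 2.99% were called higher. Around AKR1C1 these shares were 5.57 and 2.42%. AKR1C2 passed the 1 FPKM filter only with LSD1 siRNA, and compared genes with a mean below 1 FPKM passed only in their higher library. The shares around AKR1C2 are thus shaped by the filter and do not measure how unusual its difference is. In the authors' deposited table the lowest p was 0.0446 for an accession of AKR1C2 (q 0.753) and 0.102 for AKR1C1 (q 1.00).

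Reads of the near-identical pair can be moved from one gene to the other by the counting, so their sum was taken as well. AKR1C1 and AKR1C2 together were at 3.54 FPKM with LSD1 siRNA and 1.86 FPKM with control siRNA, 1.90 times higher with a log2 difference of 0.67. The difference in AKR1C2 lay mostly in 1 of its 3 accessions, NM_001135241, at 1.21 FPKM with LSD1 siRNA and 0.336 FPKM with control siRNA. A second, NM_205845, was at 0.397 FPKM with LSD1 siRNA and 0.340 FPKM with control siRNA, and the third was near 0 in both. These accessions share most of their sequence, and the split between them is uncertain for the same reason. By the rule of nearest levels at 5 FPKM or more, KRT20, DIO1 and CCDC69 came closest to AKR1C2, but at distances of 1.60 to 1.75 none had like levels.

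AKR1C3, the reductase that makes testosterone from androstenedione, had a lower value, unlike AKR1C1 and AKR1C2. It was at 3.00 FPKM with LSD1 siRNA and 3.50 FPKM with control siRNA (log2 -0.17), the highest of the 3 AKR1C genes in both libraries. All of it came from 1 accession, and the other 2 were listed at 0. The 3 genes together were at 6.54 FPKM with LSD1 siRNA and 5.36 FPKM with control siRNA (log2 0.24).

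**Figure D2:**
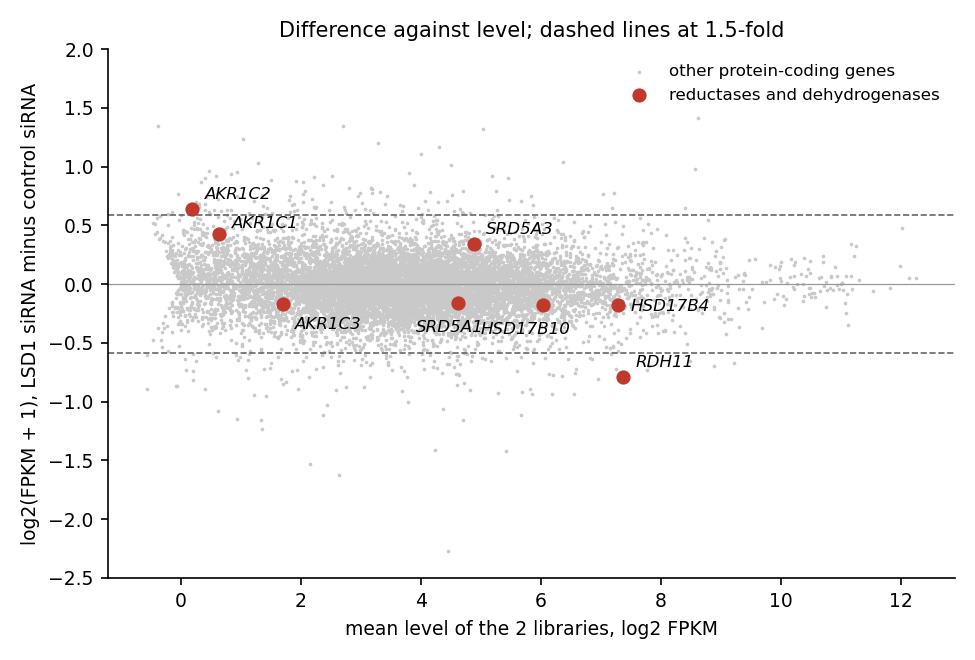
Log2 difference, LSD1 siRNA minus control siRNA, against the mean level of the 2 libraries for measured protein-coding genes (grey) and the 8 measured reductase and dehydrogenase genes (red). RDH11 at -0.79 lies below and AKR1C2 at 0.64 just above the dashed 1.5-fold lines, and the other 6 lie between them.

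Of the steroid reductases, SRD5A1 was at 23.0 FPKM with LSD1 siRNA and 25.8 FPKM with control siRNA (log2 -0.16). SRD5A3, which reduces polyprenol for the dolichol on which N-glycans are built, was at 33.0 FPKM with LSD1 siRNA and 25.9 FPKM with control siRNA (log2 0.34). The 2 genes had like control levels and differences of opposite sign, neither past 1.5-fold. Higher log2 differences than that of SRD5A3 were found in 5.06% of protein-coding genes, and lower ones than that of SRD5A1 in 22.5%. Downstream of SRD5A3 by 10.3 kb, TMEM165, a Golgi gene also needed for glycosylation, was at 76.9 FPKM with LSD1 siRNA and 55.2 FPKM with control siRNA (log2 0.47, authors' deposited q 0.537). SRD5A2, the isoenzyme that predominates in normal prostate tissue, was at 0.0175 FPKM with LSD1 siRNA and listed at 0 with control siRNA, so no fold is given.

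The multifunctional dehydrogenases were abundant and differed little. HSD17B4, the peroxisomal enzyme of fatty acid beta oxidation that also oxidises oestradiol, was at 146 FPKM with LSD1 siRNA and 165 FPKM with control siRNA (log2 -0.18). HSD17B10, a mitochondrial enzyme of isoleucine breakdown and a subunit of mitochondrial RNase P, was at 61.3 FPKM with LSD1 siRNA and 69.3 FPKM with control siRNA (log2 -0.17). Both were lower by about the same proportion, at 88.3 and 88.5% of control, as were SRD5A1 at 89.2% and AKR1C3 at 85.6%. The main accession made up 97.0% of HSD17B4 with LSD1 siRNA and 98.1% with control siRNA, and 93.3% and 95.5% of HSD17B10 in the same order. The minor accession of each had a higher value with LSD1 siRNA, at 4.30 against 3.21 FPKM in HSD17B4 and 4.11 against 3.12 FPKM in HSD17B10. HSD3B2, the enzyme that makes progesterone and androstenedione in the adrenal and gonads, was listed at 0 FPKM in both libraries.

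With control siRNA the order of levels was RDH11, HSD17B4, HSD17B10, SRD5A3, SRD5A1, AKR1C3, AKR1C1 and AKR1C2. RDH11 exchanged places with HSD17B4 in the LSD1 siRNA library, and the order of the others was the same. Without replicates no neighbours in this order can be said to differ beyond their spread.

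The ChIP comparison asked which of these genes lie near called sites. Of the 10 genes, 4 had an LNCaP LSD1 peak within 20 kb of their interval, against 37.2% of all genes in the table. For VCaP LSD1 there were 2 of 10, against 36.2%, and for H3T6ph 0 of 10, against 16.8%. Counting measured genes only, 3, 2 and 0 of 8 had such a peak, against 41.2, 41.2 and 17.8% of all measured genes. Scores are the authors' own, and depth is unknown for these lists. Coordinates below are hg19.

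At RDH11 (chr14:68143519-68162510) the LNCaP LSD1 list held a peak at chr14:68163670-68164398, 729 bases wide. It lay 1.16 kb past the high-coordinate end, which is the 5′ side of this minus-strand gene, and thus upstream of the promoter shown. Its score of 63.3 ranked at 6734 of 11673, and it overlapped no peak of the other lists and no gene interval. The nearest VCaP LSD1 and H3T6ph peaks were 146 and 186 kb away.

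In the AKR1C cluster a single LNCaP LSD1 peak lay between AKR1C2 (chr10:5029968-5060225) and AKR1C3 (chr10:5090958-5149878), at chr10:5085696-5086487. It was the highest-scoring of all those near these genes, with a score of 145 that ranked at 348 of 11673, within the top 2.98%. It was 4.47 kb before the 5′ end of the AKR1C3 interval and 65.5 kb from AKR1C1 (chr10:5005454-5020158). From AKR1C2 it was 25.5 kb away, on the 5′ side of that minus-strand gene. It met no peak of the other lists, and the VCaP LSD1 peak nearest to any AKR1C gene was 227 kb from AKR1C1. By interval AKR1C3 was the AKR1C gene nearest to the peak, and its lower value with LSD1 siRNA did not pass 1.5-fold. RefSeq has 2 starts for AKR1C3, with promoter windows that begin at chr10:5048531 and chr10:5094164 on GRCh38. Which of them its measured transcript uses was not examined. The distance of 4.47 kb is to the interval and may not be that to the start in use. Any part of the peak in these differences was not tested.

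**Figure D3:**
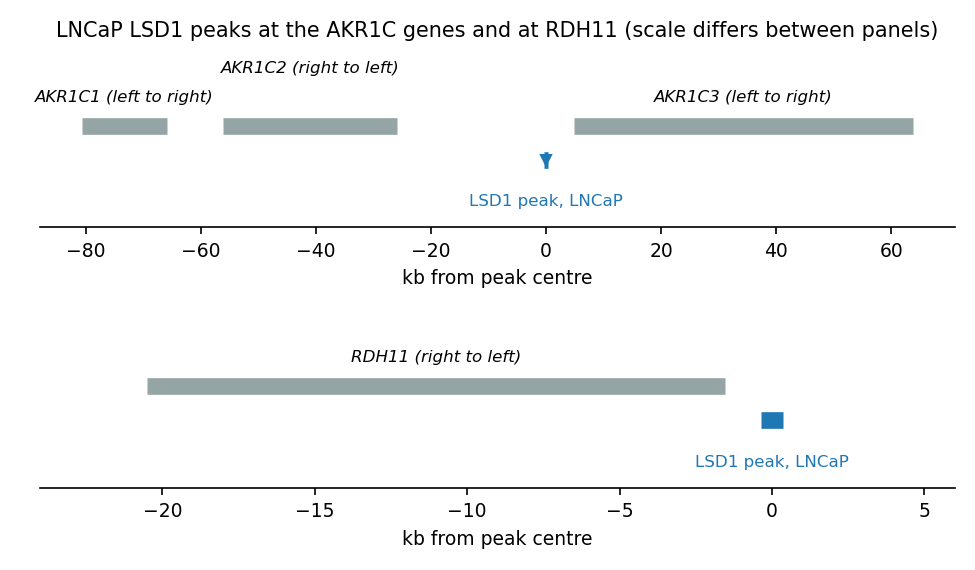
Gene intervals (grey) and the LNCaP LSD1 peak (blue) in kb from the peak centre at the AKR1C genes and at RDH11, with the direction of transcription in brackets. The peak lies 4.47 kb before the AKR1C3 interval and, in the lower panel, 1.16 kb before that of RDH11.

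HSD17B4 (chr5:118788138-118878030) was the only member with LSD1 peaks in both cell lines, all inside its interval. LNCaP had peaks at chr5:118837136-118837854 (score 90.7) and chr5:118872912-118873821 (score 55.3). VCaP had a peak at chr5:118805214-118806167 (score 70.4), 17.1 kb from the 5′ end, which overlapped neither LNCaP peak. SRD5A1 (chr5:6633500-6669675) had a VCaP peak alone, at chr5:6636330-6637317, 2.83 kb inside its 5′ end and with a low score of 52.1. HSD3B2 (chr1:119957554-119965662), listed at 0 FPKM, had an LNCaP LSD1 peak in its interval at chr1:119961469-119962133 (score 63.6). The HSD3B2 peak was inside the gene and the RDH11 peak 1.16 kb outside, and the relation of these peaks to RNA level was not tested.

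SRD5A3 (chr4:56212388-56251747), HSD17B10 (chrX:53458206-53461323) and SRD5A2 (chr2:31749656-31806040) had no peak of any list within 20 kb. Their nearest LNCaP LSD1 peaks were 161, 88.0 and 292 kb away, the nearest VCaP LSD1 peaks 161, 1711 and 111 kb, and the nearest H3T6ph peaks 927, 357 and 332 kb. For H3T6ph the smallest distance over the 10 genes was 37.0 kb, at HSD3B2, and the median was 369 kb, against a median of 165 kb over all genes of the table. For LSD1 the medians were 45.5 kb in LNCaP and 153 kb in VCaP, against 44.5 and 48.6 kb over all genes. A site below a list's threshold is not in it, so the lists do not show that a site is unbound.

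**Figure D4:**
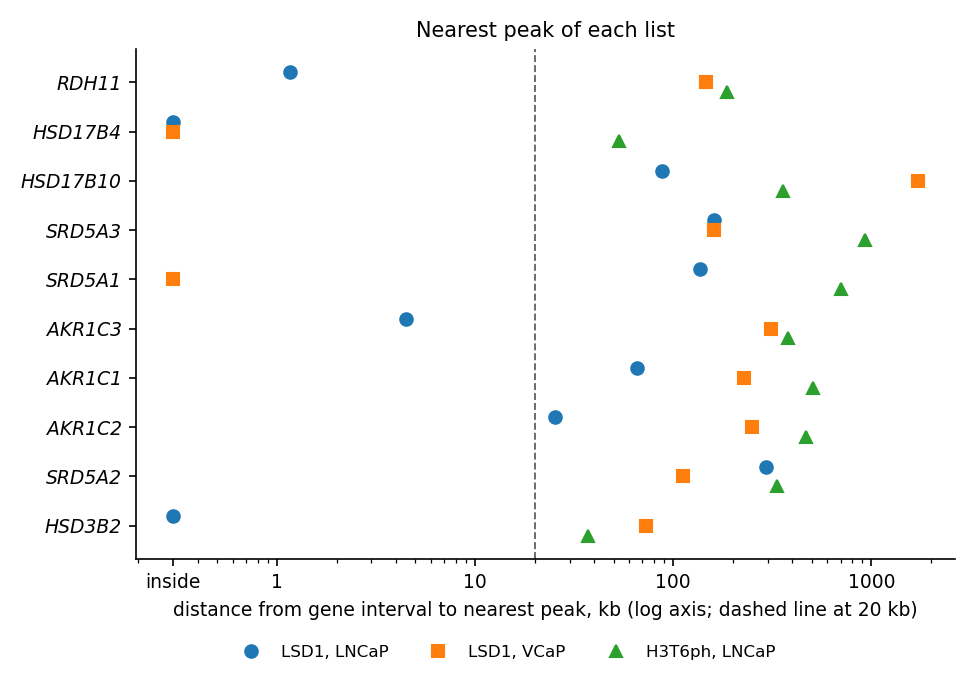
Distance in kb (log axis) from each gene interval to the nearest peak of LSD1 in LNCaP, LSD1 in VCaP and H3T6ph in LNCaP; peaks inside a gene are drawn at the left and the dashed line is 20 kb. LNCaP LSD1 peaks lie left of the line at 4 genes and H3T6ph peaks at none.

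The other genes of these pathways were described from 8 lists. In the related reductases and dehydrogenases 32 of 49 genes were measured and none was called in either direction, with a median log2 difference of 0.02. The largest were in AKR1B1, an aldose reductase gene (3.18 FPKM with LSD1 siRNA and 1.98 FPKM with control siRNA, log2 0.49), HSD17B8 (log2 -0.42) and DHRS2 (log2 0.39). Steroid synthesis and sulfation had 10 measured genes of 18 and none called (median 0.08), with SULT2B1, a sterol sulfotransferase gene, at 0.41, FDXR at 0.21 and STARD3 at 0.19. Retinoid handling had 8 measured genes of 21 and none called (median 0.16), with the retinoic acid receptor genes RARG and RARA at 0.47 and 0.44 and TTR at 0.30.

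Androgen glucuronidation, the next step in clearing androgens, had 2 of 6 measured genes called lower, against 2.41% of all measured genes. None was called higher, and the median was -0.18. UGT2B11 was at 39.8 FPKM with LSD1 siRNA and 61.8 FPKM with control siRNA (log2 -0.62), UGT2B28 was also at -0.62, and UGT2B10 at -0.28. The most abundant, UGT2B17, was slightly higher, at 80.8 FPKM with LSD1 siRNA and 76.4 FPKM with control siRNA (log2 0.08). So was UGT2B15, next in level, at 73.9 and 70.1 FPKM in the same order (log2 0.07). Targets of NRF2, the oxidative stress factor known to induce AKR1C genes, had 25 measured genes and none called lower (median 0.07). Of these 1 was called higher, against 1.91% of all measured genes. That was HMOX1, the haem oxygenase gene, at 48.3 FPKM with LSD1 siRNA and 27.5 FPKM with control siRNA (log2 0.79, authors' deposited q 0.0302). EPHX1 and FTH1 followed at 0.51 and 0.48, and the lowest difference in the list was -0.30. In all, 15 NRF2 targets had a higher value with LSD1 siRNA and 10 a lower one, beside 47.4 and 52.6% of all measured genes.

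Genes of dolichol and early N-glycan synthesis, the pathway of SRD5A3, had lower values in 18 of 22, against 52.6% of all measured genes, and none past 1.5-fold (median -0.09), led by DPAGT1 at -0.32, ALG10 at -0.30 and ALG8 at -0.28. An accession of ALG13, a subunit of the enzyme that adds the next sugar after DPAGT1, had in the authors' deposited table a q of 0.0159, at 0 FPKM with LSD1 siRNA and 3.19 FPKM with control siRNA. Summed over its accessions ALG13 was at 14.9 FPKM with LSD1 siRNA and 15.4 FPKM with control siRNA (log2 -0.04). Peroxisomal beta oxidation, the pathway of HSD17B4, had 1 of 17 called lower, against 2.41% of all measured genes (median -0.05). That was CROT, a carnitine transferase gene, at 14.9 FPKM with LSD1 siRNA and 25.8 FPKM with control siRNA (log2 -0.75), followed by PEX5 at -0.42. Mitochondrial tRNA processing and branched-chain oxidation, the pathways of HSD17B10, had lower values in 14 of 17 and none past 1.5-fold (median -0.14), beside the same 52.6% of all measured genes. HADHB was at -0.50, ACAD8 at -0.38 and TRMT10C, another subunit of mitochondrial RNase P, at -0.31.

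**Figure D5:**
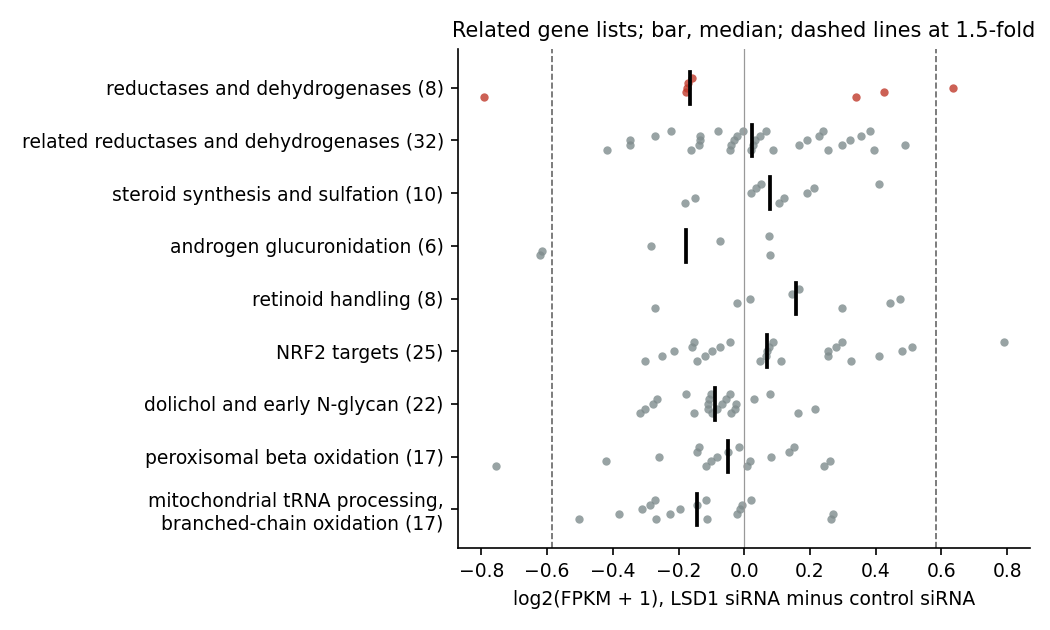
Log2 difference, LSD1 siRNA minus control siRNA, of every measured gene in the reductases and dehydrogenases (red) and the 8 related lists (grey), with the number measured in brackets, bars at the medians and dashed lines at 1.5-fold. RDH11 at -0.79, CROT at -0.75 and the UGT2B pair at -0.62 lie past the lower line, and AKR1C2 at 0.64 and HMOX1 at 0.79 past the upper one.

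Of 56 measured protein-coding genes with the run of RDH11 and HSD17B4 in a promoter window, 1 was called lower and none higher. Their median log2 difference was -0.07. Among all measured protein-coding genes 1.18% were called lower and 1.04% higher. The 1 called gene was RDH11, which was in the set by choice, since the run was taken from its window.

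Most markers of other cell types were low. No basal prostate marker of 5 reached 1 FPKM. In the lists for steroidogenic cells (6), hepatocytes (6), neuroendocrine cells (5) and fibroblasts (5) 1 gene each did, and 2 of 5 did in the immune list. The highest was CD68 of the immune list, at 16.2 FPKM with LSD1 siRNA and 11.0 FPKM with control siRNA. COL1A1 of the fibroblast list was at 11.7 and 8.77 FPKM in the same order. Each made up most of its list's sum. Summed levels with LSD1 and control siRNA were 1.28 and 0.785 FPKM for basal, 2.16 and 2.27 for steroidogenic, 4.25 and 3.42 for hepatocyte, 1.12 and 1.09 for neuroendocrine, 12.0 and 9.04 for fibroblast and 18.1 and 12.7 FPKM for immune markers.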

How the data were processed

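RNA of LNCaP and ChIP-seq peaks of LNCaP and VCaP were analysed from the files the authors deposited. Tools named in the submitters' processing notes are Cuffdiff 2.0.1, TopHat2 2.0.4, Bowtie2 2.0.0 and MACS2, with the build hg19. The authors deposited FPKM per RefSeq accession and library beside their own p-value and q-value, in columns laid out as by Cuffdiff, per the file headers. Each peak has a score by the authors, of unstated scale. For library scaling, the ChIP control and the annotation version, what was done is not given in the sources used here.

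The RefSeq table of GRCh38.p14 gave a symbol to 38934 (96.7%) of 40253 accessions. FPKM were summed by symbol, and 42 genes with a failed accession, POR among the lists, were left out. Distances run from the gene interval of the table to the peak. TruSeq v2 does not mark strand, so antisense overlaps are counted together. Strands and promoters are from RefSeq, and no position was converted between builds. The named genes were all members, KDM1A, the 3 measured genes with the largest absolute difference in each list, the 3 of nearest level to each called member and all peaks within 20 kb or else the nearest. A result that this rule takes in is not reported here. ARG2, VTI1B, ZFYVE26, TMEM165, ALG13, UGT2B15 and UGT2B17 were named after their values were seen. The members, lists and size rules were chosen with earlier results of these data known. Scripts used Python 3.11.15, pandas 2.3.3 and Biopython 1.88, and were tested on simulated data.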

Additional observations from a re-analysis of the deposited data

How the results depend on the processing

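No paired analysis was possible because each group has 1 sample, and no replicate could be left out. Values without replicates were judged by their side of the 1.5-fold rule. RDH11 kept its call under 7 alternatives (log2 -0.80 to -0.76), and AKR1C2 ranged over 0.22 to 1.14 and AKR1C1 over 0.16 to 0.66, the highest with a pseudocount of 0.1 and the lowest with 5. The count of 2 members past 1.5-fold was 3 with a pseudocount of 0.1, where AKR1C1 was added. It was 1 with a pseudocount of 5 or with genes at 5 FPKM or more, which removes the AKR1C genes, and 0 with the 2-fold rule or the authors' q. Summing AKR1C1 and AKR1C2, an alternative chosen after seeing the data, left it at 2, of 7 genes. The share of all genes called was not computed with pseudocounts of 0.1 or 5 or with genes at 5 FPKM or more. Scaling the libraries to a common median or upper quartile moved the median of all genes by 0.01 and 0.03. No list median passed 1.5-fold under any alternative. That of the related reductases and dehydrogenases was -0.02 with 1 accession a gene or at 5 FPKM or more, and that of androgen glucuronidation ran from -0.28 with a pseudocount of 0.1 to -0.07 at 5 FPKM or more. With no filter on low values retinoid handling was at 0.04, and the members' own median was -0.08.

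Members near an LNCaP LSD1 peak numbered 2 and not 4 when a peak had to overlap the gene, among the higher-scoring peaks of the list, and among the 4000 highest-scoring. Near VCaP LSD1 there was 1 and not 2 among the higher-scoring peaks and the 4000 highest-scoring. Within 50 kb, H3T6ph had 1 and not 0. The cause of these shifts is the narrower or wider set of peaks counted. The share of all genes was not computed under these settings, so the counts describe the members alone. Depth was lower in the LSD1 siRNA library, and its part in the differences of AKR1C1 and AKR1C2 was not tested.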
